A study of Homo sapiens with 9 samples.

Results

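Wound growth factor genes were examined in HaCaT cells, an immortalized human keratinocyte line that is widely used as a model of the epidermis. The 9 genes were taken by symbol and code for 3 ligands of the VEGF family (VEGFA, VEGFC and PGF), the 2 chains of classical PDGF (PDGFA and PDGFB), the fibroblast growth factor FGF2 with its carrier FGFBP1, the angiopoietin-like protein ANGPTL4 and the activin subunit INHBA. All 9 were present among the 16199 genes listed in at least 1 of the 9 libraries, and all 9 passed the count filter that left 12394 genes for testing. The 3 groups of 3 libraries each came from cells kept in serum-free medium without additive (untreated), cells given EGF at 10 nM for 24 h, and cells given bleogen pB1 at 1 µM for 24 h. EGF is the natural ligand of the EGF receptor, and bleogen pB1 is a small cysteine-rich plant peptide described by the study as an agonist of the same receptor. HaCaT is an established line of 1 origin, so that the 3 replicates of a group are not different donors. Nothing in the labels states that the replicates were separate cultures, and p-values therefore measure only the spread between these libraries. The doses of the treatments were not matched, and each was used at 1 dose and 1 time.

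In the wound edge, keratinocytes are a source of secreted factors that act on neighbouring cells. VEGFA and PGF act on blood vessels through VEGF receptors and neuropilins, VEGFC is best known for the growth of lymphatic vessels, and PDGF chains recruit fibroblasts and smooth muscle cells. FGF2 is stored on heparan sulfate outside the cell and is mobilised by FGFBP1, ANGPTL4 inhibits lipoprotein lipase and acts on vessels and on keratinocyte migration, and 2 INHBA chains form activin A, which is antagonised by follistatin. In the Gene Ontology sets supplied with the deposited tables, 7 of the 9 genes carried growth factor activity and 4 carried heparin binding.

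On GRCh38 (GENCODE annotation, release 44), VEGFA lies at chr6:43770184-43786487 on the plus strand, VEGFC at chr4:176683538-176792922 on the minus strand and PGF at chr14:74941834-74955626 on the minus strand. The PDGF chains lie at chr7:497258-520296 (PDGFA, minus strand) and chr22:39223359-39244982 (PDGFB, minus strand). FGF2 spans chr4:122826682-122898236 on the plus strand and FGFBP1 chr4:15935577-15938740 on the minus strand. ANGPTL4 was annotated at chr19:8363289-8374370 on the plus strand and INHBA at chr7:41667168-41705834 on the minus strand. The exons of FGF2 overlap those of NUDT6, a protein-coding gene on the opposite strand, those of INHBA overlap the antisense RNA INHBA-AS1, and those of VEGFA overlap a long non-coding RNA. The libraries were stranded, but whether the counting used the strand was not stated, so that the values of these 3 genes may include reads of their partners.

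RefSeq promoter windows (GRCh38.p14) were found for 7 of the 9 genes, in 11 windows, since PDGFA has 4 start sites and PGF has 2. No window was available for VEGFA or PDGFB, so that their promoters were not searched. The 250 bases before the start are printed for 4 genes that were higher with EGF (VEGFC, PGF at its start site farthest upstream, ANGPTL4 and INHBA) and for FGFBP1, the most abundant gene of the group, which did not pass the test and fold limit. Capitals mark matches on either strand to a TATA box (TATAAA), a GC box (GGGCGG), the core of the hypoxia response element (ACGTG) or an AP-1 site (TGANTCA). Each stretch is written 5′ to 3′ on the strand of its gene, and no match of 1 motif overlapped a match of another.
VEGFC, chr4:176792923-176793172, minus strand: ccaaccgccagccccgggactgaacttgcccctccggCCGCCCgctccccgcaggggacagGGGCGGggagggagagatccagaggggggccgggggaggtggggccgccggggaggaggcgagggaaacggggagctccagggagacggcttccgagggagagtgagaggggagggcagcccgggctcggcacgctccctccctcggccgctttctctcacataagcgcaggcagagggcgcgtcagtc
PGF, chr14:74955765-74956014, minus strand: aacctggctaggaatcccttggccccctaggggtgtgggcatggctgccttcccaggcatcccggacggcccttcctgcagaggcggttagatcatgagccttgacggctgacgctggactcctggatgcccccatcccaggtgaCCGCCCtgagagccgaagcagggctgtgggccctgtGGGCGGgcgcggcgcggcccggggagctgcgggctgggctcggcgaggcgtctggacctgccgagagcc
ANGPTL4, chr19:8363905-8364154, plus strand: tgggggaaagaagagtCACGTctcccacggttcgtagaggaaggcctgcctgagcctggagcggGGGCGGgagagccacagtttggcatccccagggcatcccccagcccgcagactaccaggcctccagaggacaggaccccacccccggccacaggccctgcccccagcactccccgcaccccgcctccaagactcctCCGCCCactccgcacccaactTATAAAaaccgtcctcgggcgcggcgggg
INHBA, chr7:41703091-41703340, minus strand: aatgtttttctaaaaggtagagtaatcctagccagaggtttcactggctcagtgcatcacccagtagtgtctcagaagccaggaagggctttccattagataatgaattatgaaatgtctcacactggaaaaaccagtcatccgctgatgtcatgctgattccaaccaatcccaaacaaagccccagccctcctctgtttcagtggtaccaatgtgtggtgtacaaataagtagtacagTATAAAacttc
FGFBP1, chr4:15938741-15938990, minus strand: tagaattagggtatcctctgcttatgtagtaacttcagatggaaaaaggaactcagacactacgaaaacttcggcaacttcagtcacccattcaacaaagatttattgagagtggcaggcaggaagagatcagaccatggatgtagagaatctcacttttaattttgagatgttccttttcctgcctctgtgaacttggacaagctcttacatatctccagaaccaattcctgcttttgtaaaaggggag
The promoters printed for 4 of the raised genes differed in base composition and in the motifs they held. VEGFC and PGF were rich in G and C (74% and 70.8%, against a median of 58% over all 35116 windows), each had 2 GC boxes and neither had a TATA box. ANGPTL4 held a TATA box starting 29 bases before the start, 2 GC boxes, and the only hypoxia core found among the 11 windows, starting 234 bases before it. INHBA was poor in G and C (42.8%) and held a TATA box starting 11 bases before the start. FGFBP1, at 40.8% G and C, held none of the 4 motifs. Among all windows of this length, 10.7% held TATAAA, 42.6% held GGGCGG, 18.5% held ACGTG and 6.57% held TGANTCA, and no window of the 7 genes held the last. These matches describe the letters of the windows and not binding.

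The libraries held between 20288417 and 21320994 expected counts, and 3 counts corresponded to 0.141 to 0.148 CPM (counts scaled to library size, with TMM factors for all values given below). The 12 keratinocyte markers examined were all detected, with a summed level of 15000 to 18600 CPM over the 9 libraries. Markers of other cells were low. The fibroblast list summed to 7.71 to 9.6 CPM in untreated, 1.59 to 2.25 in EGF-treated and 6.4 to 9.36 in bleogen pB1-treated libraries, with COL1A2, PDGFRA, PDGFRB and THY1 under 3 counts per library on average in every group. The endothelial list summed to 3.73 to 5.11, 0.53 to 1.01 and 1.44 to 2.01 CPM, respectively, with PECAM1, KDR and TEK under 3 counts in every group. The melanocyte list summed to 5.24 to 9.17 CPM over the 9 libraries. The myeloid list summed to 12.7 to 14.5 CPM in untreated and bleogen pB1-treated and 22.7 to 23.2 CPM in EGF-treated libraries. CD68 made up most of the myeloid sum (mean 11.8 CPM untreated, 20.2 CPM with EGF, 10.7 CPM with bleogen pB1). ITGAM was also higher with EGF on average (1.55 against 0.563 CPM untreated), but its libraries overlapped, at 8 to 50 counts with EGF and 7 to 17 untreated. PTPRC was under 3 counts per library on average in every group. The part of these lists in the results below was not tested. All 9 libraries were labelled as HaCaT cells, and no other cell type was named. In such bulk samples, fewer cells that express a gene and less of its RNA per cell cannot be told apart.

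Per length, FGFBP1 was by far the most abundant of the 9 transcripts in untreated cells, and PGF and ANGPTL4 were close to the detection floor. On the FPKM scale of the authors (fragments scaled to gene length and library size), the untreated level was 418 ± 13.4 for FGFBP1, 24.5 ± 2.09 for VEGFA and 16.9 ± 0.656 for PDGFA (mean ± SD, n = 3 here and below). PDGFB (5.5 ± 0.2 FPKM) and VEGFC (5.14 ± 0.195 FPKM) followed, and their libraries overlapped. INHBA (2.53 ± 0.275 FPKM) and FGF2 (2.39 ± 0.288 FPKM) also overlapped, as did ANGPTL4 (0.13 ± 0.111 FPKM) and PGF (0.103 ± 0.0404 FPKM) at the bottom. The other neighbours in this order did not overlap. With EGF, VEGFC moved from the fifth to the third place at 20.4 ± 2.27 FPKM, where its libraries overlapped those of PDGFA (17.3 ± 1.03 FPKM), and all other neighbours were separate. With bleogen pB1, the order of the mean levels was the same as in untreated cells, and VEGFA (22.0 ± 3.11 FPKM) overlapped PDGFA (18.1 ± 1.18 FPKM).

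**Figure D1:**
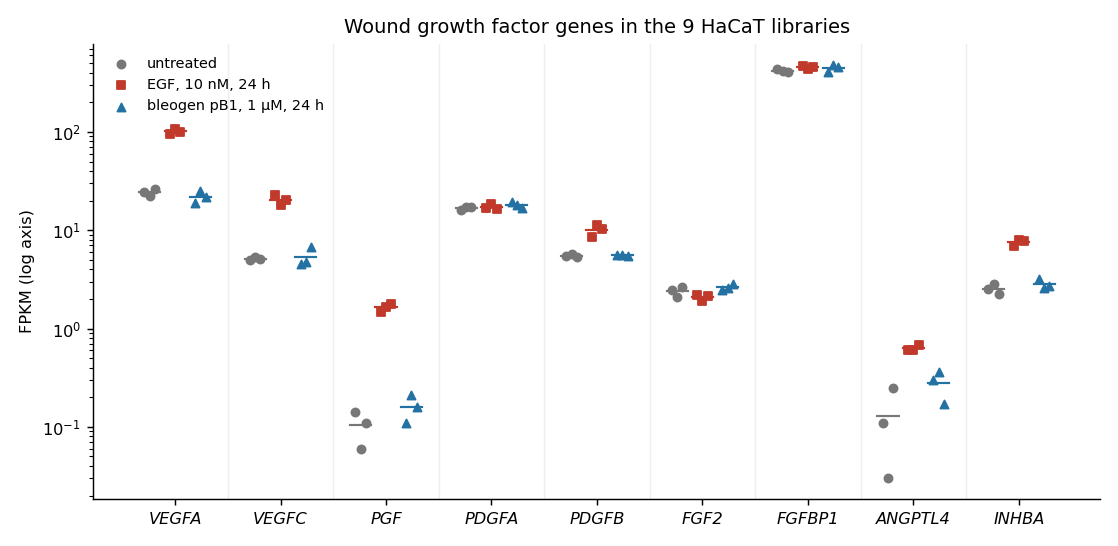
FPKM of the 9 wound growth factor genes in each library, on a log axis, with 3 points per group (grey circles untreated, red squares EGF, blue triangles bleogen pB1) and a line at the group mean. The EGF libraries of VEGFA, VEGFC, PGF, PDGFB, ANGPTL4 and INHBA lie above all other libraries of the gene, whereas the groups of PDGFA lie at one level, between 16.13 and 19.34 FPKM.

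To ask which of the genes respond to EGF, EGF-treated and untreated cells were compared with the quasi-likelihood test of edgeR, with p-values adjusted over all 12394 genes. DEGs (differentially expressed genes) were called where the adjusted p did not exceed 0.05 and the log2 fold change was 0.5 or more in size. Of the 9 genes, 6 were upregulated, in that VEGFA, VEGFC, PGF, PDGFB, ANGPTL4 and INHBA rose, and 0 were downregulated. Over all genes tested, 36.9% were DEGs in this comparison, 15.1% upregulated and 21.8% downregulated. The median log2 fold change was 1.65 over the 9 genes and −0.01 over all genes. A log2 fold change of at least 2 was reached by 4 of the 9 (VEGFA, VEGFC, PGF and ANGPTL4) and by 1.04% of all genes. The genes were chosen with results of these libraries known, so that these shares describe the list and do not test it. PGF and ANGPTL4 were also tested only because of their EGF-treated libraries, so that both enter these counts through the group where they are high. The libraries of 7 of the 9 did not overlap between the groups, against 70.4% of all genes, and all 7 were higher with EGF, against 34.5%.

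The 3 VEGF ligands rose together. VEGFA, the main angiogenic factor of keratinocytes, had 71.7, 66.8 and 80.0 CPM in untreated libraries and 303, 337 and 317 CPM with EGF. Every EGF-treated library was thus far above the highest untreated library. The log2 fold change was 2.13 (SE 0.09, 95% confidence interval 1.93 to 2.33, adjusted p = 2.2e-09 by edgeR), a 4.38-fold increase. VEGFC, the lymphangiogenic ligand, had 9.93, 10.8 and 10.3 CPM in untreated libraries and 48.0, 38.4 and 42.7 CPM with EGF. Its groups were also well separated. The log2 fold change was 2.06 (SE 0.13, interval 1.77 to 2.35, adjusted p = 6.6e-08 by edgeR), close to that of VEGFA, although the untreated level of VEGFC was lower.

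PGF, the placental growth factor, which binds FLT1 but not KDR, showed the largest log2 fold change of the 9 genes, from a level near the floor. It had 5, 2 and 4 counts in untreated libraries and 55, 62 and 70 counts with EGF, equal to 0.177 ± 0.0724 and 3.08 ± 0.312 CPM. Every EGF-treated library thus stood far above every untreated library. The log2 fold change was 4.07 (SE 0.33, interval 3.36 to 4.79, adjusted p = 4.3e-07 by edgeR). PGF passed the count filter only through its 3 EGF-treated libraries, so that a difference was built into its being tested. The ratio of the summed counts, 187 against 11 and scaled to the TMM-adjusted library sizes, was 17.4, with an exact 95% interval of 9.5 to 35.4 that covers counting error only.

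The 2 PDGF chains differed. PDGFB had 16.2, 17.6 and 15.8 CPM in untreated libraries and 27.5, 36.1 and 32.6 CPM with EGF. All 3 EGF-treated libraries were higher, with a log2 fold change of 0.95 (SE 0.10, interval 0.74 to 1.17, adjusted p = 4.0e-06 by edgeR). PDGFA had 43.1, 46.4 and 46.2 CPM in untreated libraries and 47.6, 51.5 and 45.9 CPM with EGF. Its groups overlapped, the log2 fold change was 0.09 (SE 0.07, adjusted p = 0.27 by edgeR), and the interval of −0.06 to 0.25 leaves out the change seen for PDGFB. The sign of the PDGFA value depended on the scaling, since upper-quartile factors gave −0.01.

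FGF2 and its carrier changed little. FGF2 had 16.4, 13.9 and 17.4 CPM in untreated libraries and 15.3, 13.1 and 14.8 CPM with EGF. The groups overlapped, and the log2 fold change was −0.14 (SE 0.11, interval −0.38 to 0.10, adjusted p = 0.27 by edgeR). Its partner on the opposite strand, NUDT6, had 2.95 to 4.08 CPM with EGF and 3.92 to 4.48 CPM in untreated libraries, well below FGF2 itself, and the counts of both were fractional in part. FGFBP1 had 554, 539 and 517 CPM in untreated libraries and 636, 584 and 611 CPM with EGF. These libraries did not overlap, and the log2 fold change of 0.19 (SE 0.07, interval 0.04 to 0.33, adjusted p = 0.024 by edgeR) passed the p threshold, as did 66.1% of all genes, but not the fold limit. The adjusted p of FGFBP1 ran from 0.008 to 0.27 over its 20 alternatives, and was highest with upper-quartile factors, which shifted the median of all genes to −0.12 and the share of DEGs that were upregulated from 41.0% to 30.2%.

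ANGPTL4 was raised from the floor. It had 4, 1 and 9 counts in untreated libraries and 23, 23 and 27 counts with EGF, equal to 0.224 ± 0.192 and 1.2 ± 0.0843 CPM. The untreated libraries varied widely, whereas the EGF-treated libraries were alike and all above them. The log2 fold change was 2.39 (SE 0.47, interval 1.37 to 3.40, adjusted p = 5.8e-04 by edgeR), and with 1 library left out it ran from 1.93 (without untreated replicate 2) to 3.24 (without untreated replicate 3). No untreated library of ANGPTL4 passed the count filter. Its 3 EGF-treated libraries met the filter, whereas the 2 bleogen pB1-treated libraries that passed would not have been enough without them. As for PGF, a difference was therefore built into its being tested. The ratio of the summed counts, 73 against 14, was 5.33, with an exact 95% interval of 2.99 to 10.2 for counting error.

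INHBA, the subunit of activin A, had 15.0, 16.9 and 13.4 CPM in untreated libraries and 43.6, 49.8 and 48.8 CPM with EGF. The groups were separated by a wide gap, and the log2 fold change was 1.65 (SE 0.11, interval 1.42 to 1.88, adjusted p = 6.4e-08 by edgeR), a 3.13-fold increase. For the CPM values of single genes, the exact two-sided permutation p was 0.1 for each of the 6 DEGs, the smallest value that 3 against 3 libraries allow.

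With bleogen pB1, the same 9 genes stayed within or near the spread of the untreated libraries, and 0 of 9 were DEGs by edgeR, against 1.48% of all genes. At an unadjusted p under 0.05 the count was also 0 of 9, against 22.2% of all genes. DESeq2 and limma called 0 of 9 as well, but could not call every gene. DESeq2 gave no adjusted p for PGF and ANGPTL4 in this comparison, and the filtered limma fits left ANGPTL4 out. The libraries of all 9 overlapped between the groups, whereas 29.1% of all genes did not overlap. The median log2 fold change was 0.08 over the 9 genes and −0.00 over all genes.

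The intervals show what size of response these libraries leave room for. VEGFA had 56.4, 73.6 and 65.4 CPM with bleogen pB1, a log2 fold change of −0.16 (SE 0.09, interval −0.36 to 0.04, adjusted p = 0.34 by edgeR). VEGFC had 9.03, 9.37 and 13.2 CPM, a log2 fold change of 0.03 (SE 0.14, interval −0.28 to 0.34, adjusted p = 0.93 by edgeR). The value of VEGFC rested on the third library, and was −0.17 without it. PDGFA (51.4, 47.4 and 44.8 CPM; interval −0.08 to 0.24) and PDGFB (16.2, 16.1 and 16.3 CPM; interval −0.25 to 0.20) had log2 fold changes of 0.08 and −0.03. FGF2 had 16.2, 16.9 and 18.6 CPM (log2 fold change 0.12, interval −0.11 to 0.35), and FGFBP1 had 522, 608 and 571 CPM (log2 fold change 0.08, interval −0.06 to 0.22). INHBA had 19.1, 15.3 and 16.0 CPM, and its log2 fold change was 0.15 (SE 0.11, interval −0.09 to 0.39, adjusted p = 0.46 by edgeR). For these 7 genes, every interval lay within 0.5 of 0 on the log2 scale.

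PGF and ANGPTL4 were less well bounded. PGF had 4, 8 and 6 counts with bleogen pB1, and its log2 fold change of 0.65 had an interval of −0.38 to 1.69 (adjusted p = 0.48 by edgeR). The ratio of the summed counts, 18 against 11, was 1.59 with a counting interval of 0.711 to 3.73. ANGPTL4 had 11, 13 and 6 counts with bleogen pB1, of which the first pair exceeded every untreated library and the third did not. Its log2 fold change was 1.04 (SE 0.54, interval −0.13 to 2.21, adjusted p = 0.28 by edgeR). The ratio of its summed counts, 30 against 14, was 2.08 with a counting interval of 1.07 to 4.25, which does not include the spread between replicates. No change of ANGPTL4 with bleogen pB1 passed the test, and its interval includes both 0 and values above 2 on the log2 scale.

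**Figure D2:**
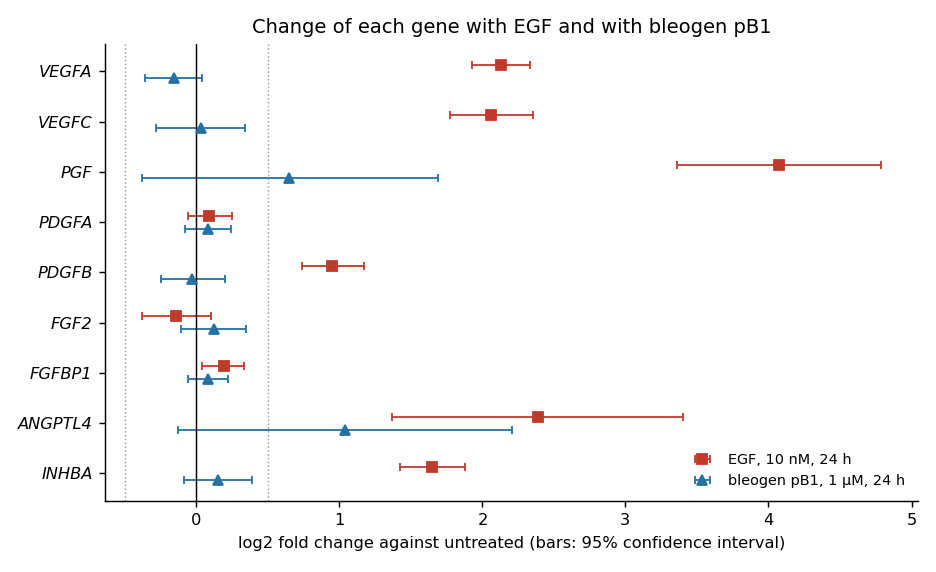
Log2 fold change against untreated for each gene with EGF (red squares) and bleogen pB1 (blue triangles), with bars for the 95% confidence interval of the edgeR fit and dotted lines at the fold limit of 0.5 on either side of 0. The EGF values run from −0.14 for FGF2 to 4.07 for PGF. The bleogen pB1 intervals all include 0 and are widest for PGF and ANGPTL4.

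The difference between the treatments was tested directly, at their unequal doses. EGF-treated cells had higher levels than bleogen pB1-treated cells of 6 of the 9 genes by edgeR, namely VEGFA, VEGFC, PGF, PDGFB, ANGPTL4 and INHBA, whereas 28.8% of all genes tested were called in this comparison and 10.8% of all genes tested were called higher with EGF. Both treatments were compared with the same untreated libraries above, and the comparison of EGF with bleogen pB1 does not use them for the difference itself. The log2 difference was 2.29 (SE 0.09, adjusted p = 1.7e-09 by edgeR) for VEGFA, 2.03 (SE 0.13, adjusted p = 9.9e-08) for VEGFC and 1.50 (SE 0.11, adjusted p = 1.8e-07) for INHBA. PDGFB differed by 0.98 (SE 0.10, adjusted p = 4.6e-06 by edgeR) and PGF by 3.42 (SE 0.30, adjusted p = 1.3e-06), although PGF was tested only because of its EGF-treated libraries, and for each of these 5 genes, as for 30.7% of all genes, all 3 EGF-treated libraries were higher than all 3 with bleogen pB1.

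ANGPTL4 was less firm in this comparison, and it too was tested only because of its EGF-treated libraries. Its log2 difference was 1.35 (SE 0.41, interval 0.47 to 2.22, adjusted p = 0.012 by edgeR). Without bleogen pB1 replicate 3, its lowest library in that group, the difference was 1.09 and the adjusted p 0.062 (0.0071 to 0.062 over all alternatives), and with limma on log2(FPKM + 1) it was 0.35, under the fold limit. FGF2 was the 1 gene of the 9 that was lower with EGF in all 3 libraries, against 31.7% of all genes. Its log2 difference was −0.26 (SE 0.11, interval −0.49 to −0.02), with an adjusted p of 0.057 by edgeR (0.014 to 0.21 over its alternatives), and it was not called under any of them. PDGFA differed by 0.01 (interval −0.14 to 0.17) and FGFBP1 by 0.11 (interval −0.04 to 0.25), with overlapping libraries for both, and the sign for PDGFA turned with upper-quartile factors (−0.07) and with no scaling (−0.06).

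The deposited gene length, an average over the transcripts of a gene in that library, gave a readout apart from the level. It varied between libraries for VEGFA, PGF, PDGFA, PDGFB and ANGPTL4, and was constant for VEGFC, FGF2, FGFBP1 and INHBA, which have 1 transcript each in the tables. ANGPTL4, with 2 transcripts, had 1791 bases in all 3 untreated libraries, 1905 in all 3 EGF-treated libraries, and 1844.5, 1791 and 1791 with bleogen pB1. The EGF-treated libraries thus differed from the untreated libraries in this length as well as in level, although the untreated estimates rested on 1 to 9 counts. PGF, with 3 transcripts, had 1848 bases in every untreated library and 1872.43 to 1886.26 with EGF, while bleogen pB1 libraries spanned 1848 to 1899.85, and its untreated estimates rested on 2 to 5 counts. PDGFA, which did not change in level, had 2766.27 to 2768.86 bases with EGF and 2772.54 to 2782.08 in untreated libraries, a mean difference of −9.6 bases. PDGFB was longer with EGF (3140.36 to 3173.63 bases) than with bleogen pB1 (2982.42 to 3107.64 bases) and overlapped the untreated libraries. VEGFA, with 20 transcripts, ranged from 3031.14 to 3134.28 bases and overlapped in all 3 comparisons.

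Of these 5 genes, 3 did not overlap between EGF-treated and untreated libraries, against 19.8% of the 7362 genes whose length varied. For PGF and ANGPTL4, of which no untreated library passed the count filter, this says little about transcript use, which leaves PDGFA. With bleogen pB1, 0 of 5 were separate from untreated, against 10.7%, and 3 of 5 were separate between EGF and bleogen pB1, against 18%. The exact two-sided permutation p was 0.1 for each separate gene, the smallest this design allows.

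**Figure D3:**
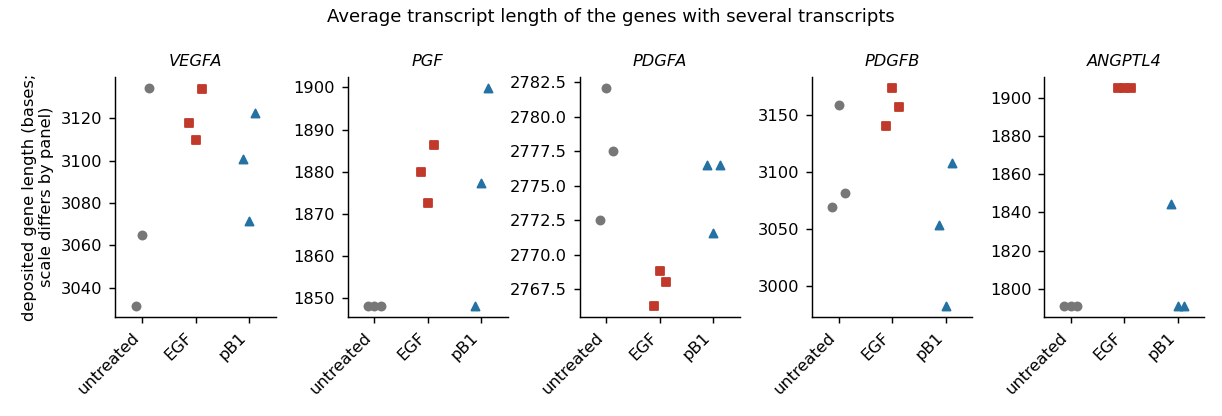
Deposited gene length in bases, per library, for the 5 genes with several transcripts, with an own scale in each panel that does not start at 0 (grey circles untreated, red squares EGF, blue triangles bleogen pB1). ANGPTL4 stood at 1791 bases in all 3 untreated libraries, which rested on 1 to 9 counts, and at 1905 bases in all 3 EGF-treated libraries. With bleogen pB1 it stood at 1844.5, 1791 and 1791 bases. PDGFA was shorter with EGF than in untreated libraries by 9.6 bases on average.

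Several other genes of the same families were lower with EGF. Of the 4 remaining VEGF and PDGF ligands, 3 were tested and all 3 were downregulated. PDGFC had 40.5, 45.7 and 42.1 CPM in untreated libraries and 24.6, 18.0 and 21.1 CPM with EGF (log2 fold change −1.01, SE 0.10, adjusted p = 2.3e-06 by edgeR). PDGFD fell from 7.75 ± 0.395 to 4.69 ± 0.779 CPM (log2 fold change −0.73, SE 0.14). VEGFB fell from 52.7 ± 1.09 to 37.2 ± 1.51 CPM, a log2 fold change of −0.50 (SE 0.09, adjusted p = 3.5e-04 by edgeR) that stood at the fold limit and was under it in 6 of 20 alternatives. None of the 3 was called with bleogen pB1, against 1.48% of all genes. Of 21 other FGF genes, 15 were listed and 6 were tested, of which 3 were downregulated and 0 upregulated with EGF. FGF1, the acidic fibroblast growth factor, had 132, 167 and 159 counts in untreated libraries and 4, 4 and 6 with EGF, so that it was left slightly above the floor (log2 fold change −4.96, SE 0.24, adjusted p = 5.1e-09 by edgeR). With bleogen pB1 it had 184, 161 and 152 counts. FGF11 fell from 18.8 ± 0.701 to 12.2 ± 0.661 CPM (log2 fold change −0.63), and FGF12, at 0.95 ± 0.263 CPM in untreated cells, to 0.165 ± 0.0314 CPM (log2 fold change −2.48). Of the 9 other VEGF, PDGF and FGF genes tested, 6 were thus called lower and 0 higher, against 21.8% and 15.1% of all genes. In EGF-treated libraries, FGF12 had 3 to 4 counts and FGF1 had 4 to 6, under the filter's minimum count of 10. Both were tested only because of the untreated and bleogen pB1-treated libraries, where they were higher, so that a difference was built into their being tested. The 9 other genes were taken by family name, whether or not they code for a secreted ligand, and with results of these libraries known.

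The receptors of VEGF and PDGF with a tyrosine kinase were at or near the floor, whereas the neuropilins were not. FLT1, KDR, PDGFRA and PDGFRB had at most 2 counts and FLT4 at most 9 counts in any library, and they did not pass the filter (these receptors were named after their values were seen). NRP1, a co-receptor of VEGFA, had 31.3, 27.1 and 32.0 CPM in untreated libraries and 119, 127 and 120 CPM with EGF. Its log2 fold change of 2.02 (SE 0.10, adjusted p = 6.3e-09 by edgeR) was close to those of VEGFA and VEGFC. NRP2, a co-receptor of VEGFC, rose from 18.5 ± 3.86 to 42.8 ± 1.52 CPM (log2 fold change 1.21, SE 0.13, adjusted p = 4.4e-06 by edgeR). These were the 2 genes tested of the 8 on the receptor list, and neither was called with bleogen pB1 (NRP1 30.3 ± 4.8 CPM and NRP2 18.4 ± 2.46 CPM). Of the 9 FGF receptors, carriers and heparan sulfate co-receptors tested, 2 rose and 4 fell with EGF, against 15.1% and 21.8% of all genes. FGFBP3, among those that fell (named after its values were seen), had 2 to 4 counts with EGF and passed the count filter only through its untreated libraries. FGFRL1, an FGF receptor without a kinase, rose from 5.19 ± 0.293 to 14.1 ± 0.669 CPM (log2 fold change 1.44). FGFR3 fell from 46.9 ± 3.4 to 29.1 ± 1.61 CPM (log2 fold change −0.69) and HSPG2, the heparan sulfate proteoglycan perlecan, from 77.1 ± 4.44 to 41.5 ± 0.199 CPM (log2 fold change −0.89). With bleogen pB1, 0 of the 9 were called, against 1.48% of all genes.

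Follistatin moved with INHBA under EGF, and was the 1 gene of the activin pathway called higher with both treatments. Of 13 genes of the pathway tested, 1 rose and 2 fell with EGF, against 15.1% and 21.8% of all genes. With bleogen pB1, 1 rose and 1 fell, while 1.48% of all genes were called. FST, the antagonist that binds activin A, had 13.2, 17.0 and 16.2 CPM in untreated libraries, 193, 170 and 195 CPM with EGF and 19.9, 30.8 and 23.7 CPM with bleogen pB1. All treated libraries were above all untreated libraries. The log2 fold change was 3.58 with EGF (SE 0.14, adjusted p = 6.7e-10 by edgeR) and 0.68 with bleogen pB1 (SE 0.14, interval 0.37 to 0.99, adjusted p = 0.021 by edgeR). The call with bleogen pB1 was lost in 6 of 20 alternatives, 4 of them by leaving out bleogen pB1 replicate 2 or 3 or untreated replicate 1 or 3, with adjusted p from 7.6e-05 to 0.13 over the 20. SMAD7 and BAMBI, both inhibitors of the signal of this receptor family, fell with EGF by 0.56 and 0.58 on the log2 scale, and SMAD7 lost its call in 4 of 20 alternatives (without EGF replicate 1 or untreated replicate 2 among them). BAMBI overlapped between the groups and lost its call in 8 of 20, among them without EGF replicate 2 or 3 or untreated replicate 2 or 3. INHBE, another activin subunit gene, had 19, 11 and 28 counts in untreated and 5, 8 and 3 with bleogen pB1. Its log2 fold change of −1.87 (SE 0.49, adjusted p = 0.05 by edgeR) lay at the threshold, and 11 of 17 alternatives lost the call, DESeq2 among them, with adjusted p from 0.028 to 0.2.

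**Figure D4:**
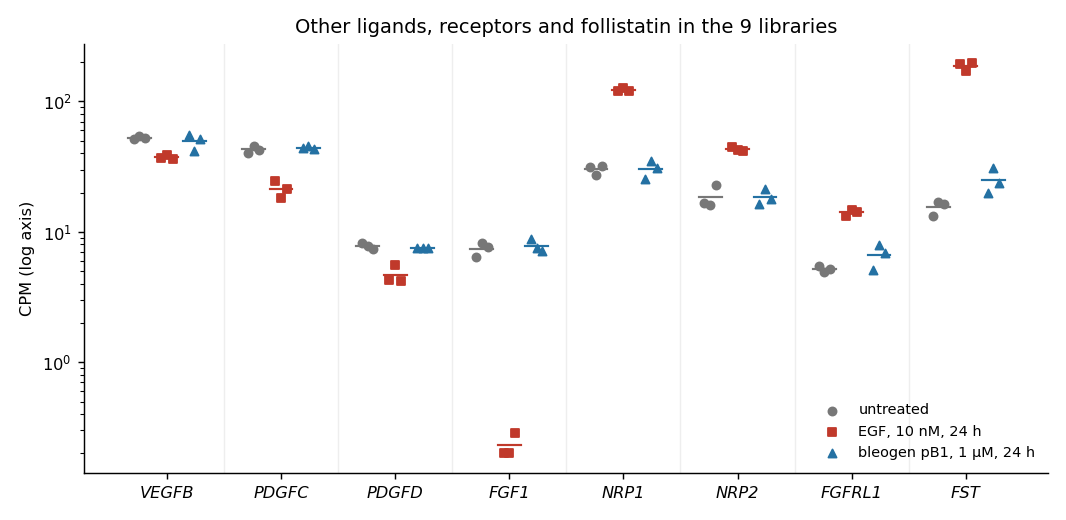
CPM per library on a log axis for 4 other ligands, 2 neuropilins, FGFRL1 and follistatin (FST), with 3 points per group (grey circles untreated, red squares EGF, blue triangles bleogen pB1) and a line at the group mean. EGF lowered the 4 ligands, FGF1 down to 0.23 CPM on average, and raised the other genes, FST up to 186 CPM on average. Bleogen pB1 libraries of the ligands and neuropilins lie among or near the untreated libraries.

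Secreted inhibitors of angiogenesis changed in both directions with EGF, with 2 of 10 tested genes up and 5 down, against 15.1% and 21.8% of all genes. SPARC, a matrix protein, had 532, 551 and 491 CPM in untreated libraries and 150, 145 and 147 CPM with EGF (log2 fold change −1.83, SE 0.11, adjusted p = 3.1e-08 by edgeR). THBS2, a thrombospondin, rose from 4.01 ± 0.5 to 14.6 ± 2.49 CPM (log2 fold change 1.86), and SEMA3A, a semaphorin that competes with VEGFA for NRP1, from 61.8 ± 4.14 to 106 ± 8.31 CPM (log2 fold change 0.78). SERPINF1, which codes for pigment epithelium-derived factor, was the 1 gene of these 10 called with bleogen pB1, against 1.48% of all genes, and it fell. It had 5.3, 4.52 and 4.78 CPM in untreated libraries, 3.06, 1.95 and 2.15 CPM with bleogen pB1 (log2 fold change −1.03, SE 0.21, adjusted p = 0.02 by edgeR) and 0.6, 1.06 and 0.722 CPM with EGF (log2 fold change −2.61, SE 0.25, adjusted p = 1.9e-06). The call with bleogen pB1 was lost when bleogen pB1 replicate 2 or 3 or any untreated replicate was left out, with adjusted p from 0.0038 to 0.12 over 20 alternatives. Of the angiopoietins, their relatives and their receptors, ANGPT1 alone was tested besides ANGPTL4, and it fell with EGF from 1.24 ± 0.104 to 0.25 ± 0.182 CPM (log2 fold change −2.30, adjusted p = 4.5e-04 by edgeR). The EGF-treated libraries of ANGPT1 held 1 to 7.95 counts and did not meet the count filter. It was tested only because of the other groups, where it was higher, so that a difference was built into its being tested.

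VEGFA and ANGPTL4 are both known as targets of hypoxia-inducible factors, and ANGPTL4 also as a target of the PPAR nuclear receptors, so these genes were examined beside them. Of 14 hypoxia genes tested, 3 rose and 2 fell with EGF, a share near the 36.9% of all genes that were called. NDRG1 rose from 48.3 ± 1.72 to 86.7 ± 0.874 CPM (log2 fold change 0.84). The glucose transporter SLC2A1 rose from 253 ± 4.64 to 364 ± 2.01 CPM (log2 fold change 0.52, at the fold limit), while EPAS1, which codes for a HIF subunit, fell from 38.0 ± 0.78 to 24.7 ± 2.57 CPM (log2 fold change −0.62). The other gene that fell was CA9, a carbonic anhydrase induced by hypoxia, from 2.07 to 0.496 CPM on average (log2 fold change −2.05, SE 0.32, adjusted p = 9.7e-05 by edgeR). The third gene that rose was ANKRD37, from 0.498 to 1.05 CPM on average (log2 fold change 1.07, SE 0.37, adjusted p = 0.023 by edgeR). CA9 and ANKRD37 were named after their values were seen. The median log2 fold change of the hypoxia genes was −0.13, and 0 of them were called with bleogen pB1, against 1.48% of all genes. Of 8 PPAR receptors and targets tested, 3 rose and 1 fell with EGF, against 15.1% and 21.8% of all genes. With bleogen pB1, 1 of the 8 was called, against 1.48% of all genes. PPARG rose from 25.7 ± 3.27 to 48.3 ± 3.78 CPM (log2 fold change 0.91), PLIN2, a lipid droplet protein, from 14.2 ± 1.43 to 24.2 ± 4.2 CPM (log2 fold change 0.77), and PPARA fell from 32.3 ± 1.5 to 18.7 ± 0.78 CPM (log2 fold change −0.79). CPT1A, the gate of mitochondrial fatty acid oxidation, was the 1 gene of this list called with bleogen pB1, at 156, 173 and 172 CPM against 113, 111 and 120 CPM in untreated libraries (log2 fold change 0.54, SE 0.06, adjusted p = 5.1e-04 by edgeR). It was also higher in all 3 EGF-treated libraries, at 163, 148 and 156 CPM, with a log2 fold change of 0.44 (adjusted p = 4.6e-05 by edgeR) that did not reach the fold limit, and the difference between the treatments was −0.10 (adjusted p = 0.19). The third gene of this list that rose with EGF was CIDEC, from 0.822 to 1.48 CPM on average. Its log2 fold change was 0.85 (SE 0.32, adjusted p = 0.031 by edgeR), and it was named after its values were seen. The part of PPAR receptors in the level of ANGPTL4 was not tested.

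Genes whose log2 CPM followed each wound growth factor most closely over the 9 libraries were sought among 9328 genes with a mean of at least 10 CPM. These correlations rest largely on the step between the EGF-treated and the other libraries and are given as a description. VEGFA was closest to PHLDA1 and NAV3 (r = 0.999 for both), and PHLDA1 had 132, 462 and 123 CPM in untreated, EGF-treated and bleogen pB1-treated cells. PGF was closest to CTTN and TNFAIP3 (r = 0.996), of which TNFAIP3, an inhibitor of NF-κB signalling, had 15.5, 87.2 and 18.3 CPM. PDGFB was closest to BCAP31 and CTSL, VEGFC to VPS37B and RPS6KA4, and INHBA to EFHD2 and PPP2R2D, with r of 0.99 or above, and ANGPTL4 to UHRF1BP1L and RASEF (r = 0.97). Among the genes that were not raised, FGF2 was closest to JADE1 (r = 0.97; 22.2, 20.9 and 24.3 CPM) and REL (r = 0.94; 29.7, 23.1 and 33.6 CPM). FGFBP1 was closest to PTDSS2 (r = 0.98; 25.9, 30.8 and 27.8 CPM) and FAM98A (r = 0.96; 68.0, 89.7 and 76.9 CPM), and PDGFA to GOLGA7 (r = 0.90; 55.7, 59.9 and 59.4 CPM) and CXorf56 (r = 0.90; 27.3, 29.7 and 29.2 CPM).

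Among all genes annotated with growth factor activity in the deposited tables, 66 were tested, of which 23 rose and 17 fell with EGF, against 15.1% and 21.8% of all genes, with a median log2 fold change of 0.08. With bleogen pB1, 1 of the 66 rose and 2 fell, while 1.48% of all genes were called. Of the 71 genes with heparin binding, 19 rose and 26 fell with EGF, with a median of −0.31. Of the 7 wound growth factor genes that carry growth factor activity, 5 rose with EGF (VEGFA, VEGFC, PGF, PDGFB and INHBA). The 7 were chosen with results of these libraries known, and PGF was tested only because of its EGF-treated libraries, so that this count is a description.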

How the data were processed

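RNA of 9 HaCaT libraries was sequenced by BGI from stranded, oligo-dT selected libraries (RNeasy kit and DNBSEQ platform per the labels, whereas the paper names the PureLink kit and a BGISEQ instrument), and reads were mapped to GRCh38.p12. The aligner and the counting program are not given in the sources used here. The authors deposited, per library, an expected count per gene that is an estimate not scaled for depth, an FPKM value scaled by effective length and library size, and a gene length averaged over transcripts. A gene without an entry in a library was counted as 0 in it, and no per-sample column was left out.

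Groups were taken from the titles and descriptions of the samples. After rounding of the expected counts, genes were compared by the quasi-likelihood test of edgeR 4.0.16, run in R 4.3.3 (filterByExpr with a minimum count of 10, TMM factors, glmQLFit and glmQLFTest, all 9 libraries in one fit with 6 residual degrees of freedom, Benjamini-Hochberg adjustment over 12394 genes). The study's methods set the thresholds (adjusted p of at most 0.05 and log2 fold change of at least 0.5 in size) and used DESeq2, which was an alternative here. Each standard error is the size of the log2 fold change over the square root of its F. CPM values are expected counts scaled to the library total and TMM factor. Floors and ratios of summed counts cover counting error only. Exact permutation tests were two-sided.

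Members and lists were chosen with earlier results of these data known. The genes named are the 9 members, at most 3 per companion list by smallest adjusted p with EGF plus any gene of the list called with bleogen pB1, and the 2 genes most like each member, and any further gene was picked once its values were known. Alternatives were DESeq2 1.42.0, edgeR on 6 libraries, RLE, upper-quartile or no scaling, other count filters, limma 3.58.1 on log2(FPKM + 1) and log2(FPKM + 0.1), other fold limits, each library left out, and a replicate block. The edgeR step was tested on simulated data for EGF against untreated. It recovered 198 of 200 genes changed 2-fold among 12248 genes and 160 of 200 changed 1.5-fold among 12260, with 1 false call each. The changed genes all had more untreated counts than PGF and ANGPTL4, and every gene was given the same spread beyond counting error. The recovery therefore does not cover PGF and ANGPTL4. The 200 changed genes were split evenly between higher and lower, whereas in the real libraries 15.1% of genes were called higher with EGF and 21.8% lower. The number of false calls therefore need not carry over to the real comparison. Tables were made with Python 3.11.15, pandas 2.3.3, numpy 2.4.6 and scipy 1.17.1.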

Additional observations from a re-analysis of the deposited data

How the results depend on the processing

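Over the 9 genes and 3 comparisons, 526 values were recomputed under alternatives, and 511 kept both their direction and their call. The calls of VEGFA, VEGFC, PGF, PDGFB, ANGPTL4 and INHBA for EGF against untreated held in every alternative fit that could be computed, as did those between EGF and bleogen pB1 apart from ANGPTL4, and none of the 9 genes was called with bleogen pB1 in any. A fold limit of 1 in place of 0.5 left 5 of the 9 genes called in each of these comparisons, since PDGFB (0.95 and 0.98) fell under it. The 2 calls lost in other fits were both of ANGPTL4 between EGF and bleogen pB1, at 0.35 with limma on log2(FPKM + 1) without a filter and at 1.09 without bleogen pB1 replicate 3. The 13 values that turned direction were small and were called in no fit. For PDGFA these were EGF against untreated with upper-quartile factors (−0.01) and EGF against bleogen pB1 with upper-quartile factors (−0.07), no scaling or any of the 3 limma fits (−0.06), without EGF replicate 2 (−0.02) or without bleogen pB1 replicate 3 (−0.03), within a range of −0.03 to 0.07 over libraries left out. For bleogen pB1 against untreated they were VEGFC without bleogen pB1 replicate 3 (−0.17, within −0.17 to 0.13 over libraries left out) and PDGFB with the 3 limma fits or without untreated replicate 2 (0.02). The cause was not tested. PGF and ANGPTL4 gave 1.26 and 0.53 with EGF on the log2(FPKM + 1) scale, which compresses low values. Both were left out of the fit that required 10 counts in every library and of the fit on the 6 libraries with bleogen pB1 or without treatment, and ANGPTL4 also of the limma fits with an FPKM of at least 1 in 3 libraries. For bleogen pB1 against untreated, DESeq2 gave neither gene an adjusted p, so that it could not call them there.

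The number of genes called among all genes depended on the limits and, with bleogen pB1, on single libraries. EGF against untreated called 4578 genes, 8187 without the fold limit and 1892 with a limit of 1. EGF against bleogen pB1 called 3564, 7214 and 1458, respectively. Bleogen pB1 against untreated called 183, 509 without the fold limit, 31 with a limit of 1 and 92 with limma on log2(FPKM + 1) without a filter. With 1 library left out it called 102 to 436 genes, with 102 without untreated replicate 1 or bleogen pB1 replicate 3, 109 without bleogen pB1 replicate 2 and 436 without bleogen pB1 replicate 1.

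Same-numbered libraries did not deviate together in every pair (correlation of deviations 0.0039 to 0.0449 for EGF and untreated, −0.0304 to 0.207 for bleogen pB1 and untreated), and no source used here states that same-numbered libraries were prepared together, so they were not treated as pairs. With a block for the replicate number, the calls stood at 6 of 9 genes for EGF, 0 of 9 for bleogen pB1 and 6 of 9 between them, and at 4560, 186 and 3550 among all genes. Of the other named genes, INHBE lost its call with bleogen pB1 under this block. At this depth PGF and ANGPTL4, with 11 and 14 summed counts in untreated cells, are the values least well determined.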
